A study of Mus musculus with 8 samples.

Results

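The 9 genes described here encode secreted or membrane-bound chemokines of the CXC and CX3C families: Cxcl1, Cxcl2, Cxcl5, Cxcl9, Cxcl10, Cxcl11, Cxcl12, Cxcl16 and Cx3cl1. They were taken by symbol from the rows of a gene count table, and all 9 were present among its 52636 genes. All 9 were also among the 15698 genes with enough counts to be tested, although Cxcl9 and Cxcl11 passed that filter through 1 group only, WT cells with cytokines. The table came from RNA sequencing of cultured liver endothelium of mice (endothelial cells form the inner lining of vessels). Cells were sorted as live, CD31 positive, VE-cadherin positive and CD45 negative before polyadenylated RNA was sequenced. There were 4 groups of 2 libraries: WT and dKO, each without cytokines and with IL1B and TNFA, a pair of inflammatory cytokines, for 16 hours. The labels do not expand dKO. The design text names induced loss of Erg, Fli1 or both, which encode ETS transcription factors of endothelial cells, after 48 hours of 4-OHT, an active tamoxifen metabolite, with harvest after 7 days of culture. The design text has 4-OHT added to the medium, whereas a treatment label has mice receiving it. The labels do not name the Cre driver, say whether WT cells received 4-OHT or carried Cre, or say how many animals gave each library. The labels do not say that libraries came from separate animals, so a p-value covers no more than the spread seen among the libraries. That spread may be technical in part, and in WT it includes a difference in sex, seen in the sex-linked transcripts given below.

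Chemokines are small proteins that bind G protein-coupled receptors and steer leukocytes out of the blood. Cxcl1, Cxcl2 and Cxcl5 carry the Glu-Leu-Arg motif and draw neutrophils through CXCR2, whereas Cxcl9, Cxcl10 and Cxcl11 are interferon-inducible ligands of CXCR3 on activated T and NK cells. Cxcl12 is a constitutive ligand of CXCR4 made mainly by stromal cells, and Cxcl16 and Cx3cl1 are made as transmembrane proteins that can hold leukocytes at the surface or be shed. In liver, endothelium of the sinusoids presents several of these ligands to passing cells, and IL1B and TNFA are known to induce many of them through NF-kB.

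The genes lay in few places in GRCm38. Cxcl5, Cxcl1 and Cxcl2 sat on the plus strand of chromosome 5 within 146579 bases, at 90759360 to 90761624, 90891241 to 90893115 and 90903871 to 90905938. Cxcl9, Cxcl10 and Cxcl11 sat on the minus strand of the same chromosome within 44139 bases, at 92321347 to 92328079, 92346638 to 92348889 and 92359544 to 92365485. Cxcl12 lay on chromosome 6 at 117168535 to 117181367 on the plus strand, Cxcl16 on chromosome 11 at 70453983 to 70459984 on the minus strand, and Cx3cl1 on chromosome 8 at 94772009 to 94782427 on the plus strand.

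Sequence upstream of the RefSeq start site (GRCm38.p6) was matched for 6 of the 9 genes, Cxcl1, Cxcl2, Cxcl9, Cxcl10, Cxcl12 and Cx3cl1, and the 4 printed here stand for the patterns of expression described below: Cxcl1 and Cxcl2 for the neutrophil ligands, Cxcl10 for the CXCR3 ligands and Cxcl12, which did not rise with cytokines. Bases that the GENCODE M21 annotation places inside a transcript were trimmed. Each is written 5′ to 3′ on the gene's own strand, in lower case, with matches of the kappaB motif and of the interferon response element core GAAANNGAAA in capitals. They lie at chr5:90890995-90891240 (plus), chr5:90903649-90903870 (plus), chr5:92348890-92349139 (minus) and chr6:117168285-117168534 (plus).
Cxcl1: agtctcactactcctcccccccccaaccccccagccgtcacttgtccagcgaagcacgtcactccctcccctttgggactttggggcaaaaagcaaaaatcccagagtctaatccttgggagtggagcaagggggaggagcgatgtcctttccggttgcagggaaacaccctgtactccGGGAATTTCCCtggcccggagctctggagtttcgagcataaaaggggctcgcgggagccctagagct
Cxcl2: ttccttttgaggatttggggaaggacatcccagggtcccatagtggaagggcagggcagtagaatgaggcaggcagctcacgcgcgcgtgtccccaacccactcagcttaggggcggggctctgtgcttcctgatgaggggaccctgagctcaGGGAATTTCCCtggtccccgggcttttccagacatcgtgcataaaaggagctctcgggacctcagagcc
Cxcl10: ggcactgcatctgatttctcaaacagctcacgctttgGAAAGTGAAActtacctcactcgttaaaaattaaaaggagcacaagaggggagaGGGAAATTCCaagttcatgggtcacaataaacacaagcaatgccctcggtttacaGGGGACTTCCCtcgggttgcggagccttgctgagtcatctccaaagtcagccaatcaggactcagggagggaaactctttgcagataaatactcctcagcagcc
Cxcl12: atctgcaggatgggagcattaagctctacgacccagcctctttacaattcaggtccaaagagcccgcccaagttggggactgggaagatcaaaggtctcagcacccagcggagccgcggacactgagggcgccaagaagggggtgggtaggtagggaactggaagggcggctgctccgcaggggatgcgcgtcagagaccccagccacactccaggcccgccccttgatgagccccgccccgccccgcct

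Cxcl1 and Cxcl2 held the same 11 letters, GGGAATTTCCC, which match the kappaB motif on both strands, 71 to 61 and 97 to 87 bases before the start. Cxcl10 held 2 separate kappaB stretches, 159 to 150 and 104 to 94 bases before the start, and 1 interferon response element core, GAAAGTGAAA, at 213 to 204. In the 250 bases before the starts of Cxcl9 and Cxcl12, none of the 4 motifs searched on both strands (kappaB, GAAANNGAAA, the STAT site TTCNNNGAA and the ETS core AGGAAG) had a match. Cxcl2 and Cx3cl1 had 1 ETS core each. That of Cx3cl1, its only match, lay 67 to 62 bases before the RefSeq start, in bases that GENCODE M21 places inside a transcript, since the search covered the whole 250 bases and not the trimmed sequence. Among 32851 windows of 250 bases before RefSeq starts, 7.25% held a kappaB match, 2.98% the interferon response element core, 7.02% the STAT site and 29.5% the ETS core. A match describes letters only, and factor binding was not measured.

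The libraries held 23009062 to 26944030 counts, and values below are CPM, counts scaled to a common total on TMM-adjusted library sizes, unless another scale is named. Erg was at 186 to 208 CPM over the 4 WT libraries and 34.7 to 91.3 in dKO, and Fli1 at 91.5 to 177 and 12.4 to 62.5. Each dKO library was below each WT library of the same treatment, although neither gene passed the edgeR test (adjusted p between 0.0538 and 0.0864), and both passed with DESeq2. The dKO libraries numbered 1 and 2 stood apart on the first principal component (57.1% of variance), at 89.2 and 102 against 42.9 and 51.2, with WT at -85.8 to -57.6. The summed level of 13 endothelial markers was 6590 to 10600 CPM in WT and 1560 to 3650 in dKO, despite the sort for CD31 and VE-cadherin. That of 12 leukocyte and macrophage markers was 4.78 to 10.4, with Ptprc at 0 counts in 7 of 8 libraries. Hepatocyte markers (8 genes, nearly all of it Trf) summed to 1.26 to 4.05 CPM in WT and 21.4 to 26.5 in dKO, and 8 cholangiocyte and mesothelial markers to 2.58 to 3.51 and 44 to 264. Spp1 was the largest part of the latter in dKO, with means of 49.3 CPM without and 188 with cytokines. Epcam, Krt7, Msln and Upk3b had group means of at most 0.253 CPM, so these sums do not show that such cells were present. The part of any such cells in any result was not tested. Xist, looked at after the values were seen, was at 171 to 633 CPM in libraries numbered 2 and at most 1.32 in those numbered 1, and the Y-linked Ddx3y was at 90.6 to 157 CPM in all but the WT libraries numbered 2, where it was at most 0.0393. The WT libraries numbered 1 and 2 thus came from animals of different sex, whereas the dKO libraries numbered 2 held both transcripts. Replicate number and sex cannot be told apart in WT, and the part of sex in any result was not tested.

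Together the 9 genes took 0.0454% and 0.0706% of all counts in WT without cytokines and 0.962% and 1% with them. In dKO they took 0.663% and 0.373% without cytokines and 1.1% and 1.03% with them. The order of levels, taken as mean RPKM (CPM per kilobase of exon) because it compares genes, differed between the groups. In WT without cytokines Cxcl5 (74.1), Cxcl16 (56.7) and Cxcl1 (51.3) overlapped in their 2 libraries, followed by Cxcl2 (18.8) and Cx3cl1 (13.2), which overlapped each other, and then by Cxcl12 (2.92) and Cxcl10 (0.286). With cytokines, WT cells held Cxcl5 at 3220, Cxcl2 at 971 and Cxcl1 at 496 RPKM without overlap, then Cxcl10 (139), Cx3cl1 (133) and Cxcl16 (125) with neighbours overlapping. Cxcl9 (2.65), Cxcl11 (0.986) and Cxcl12 (0.612) came last, and neighbours among them overlapped.

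In dKO without cytokines the order by RPKM was Cxcl5 (881), Cxcl12 (351), Cxcl2 (141), Cxcl1 (77.6), Cxcl16 (55), Cx3cl1 (21.1) and Cxcl10 (0.123), with no overlap between neighbours. With cytokines it was Cxcl5 (3280), Cxcl2 (1480) and Cxcl1 (350), then Cxcl16 (163), Cx3cl1 (147) and Cxcl12 (89.8), whose neighbours overlapped, then Cxcl10 (0.695) and Cxcl9 (0.0224). Cxcl12 was thus last of 9 in WT with cytokines and the second of 9 in dKO without them. Cxcl9 and Cxcl11 had 0 or 1 count per library in every library without cytokines.

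**Figure D1:**
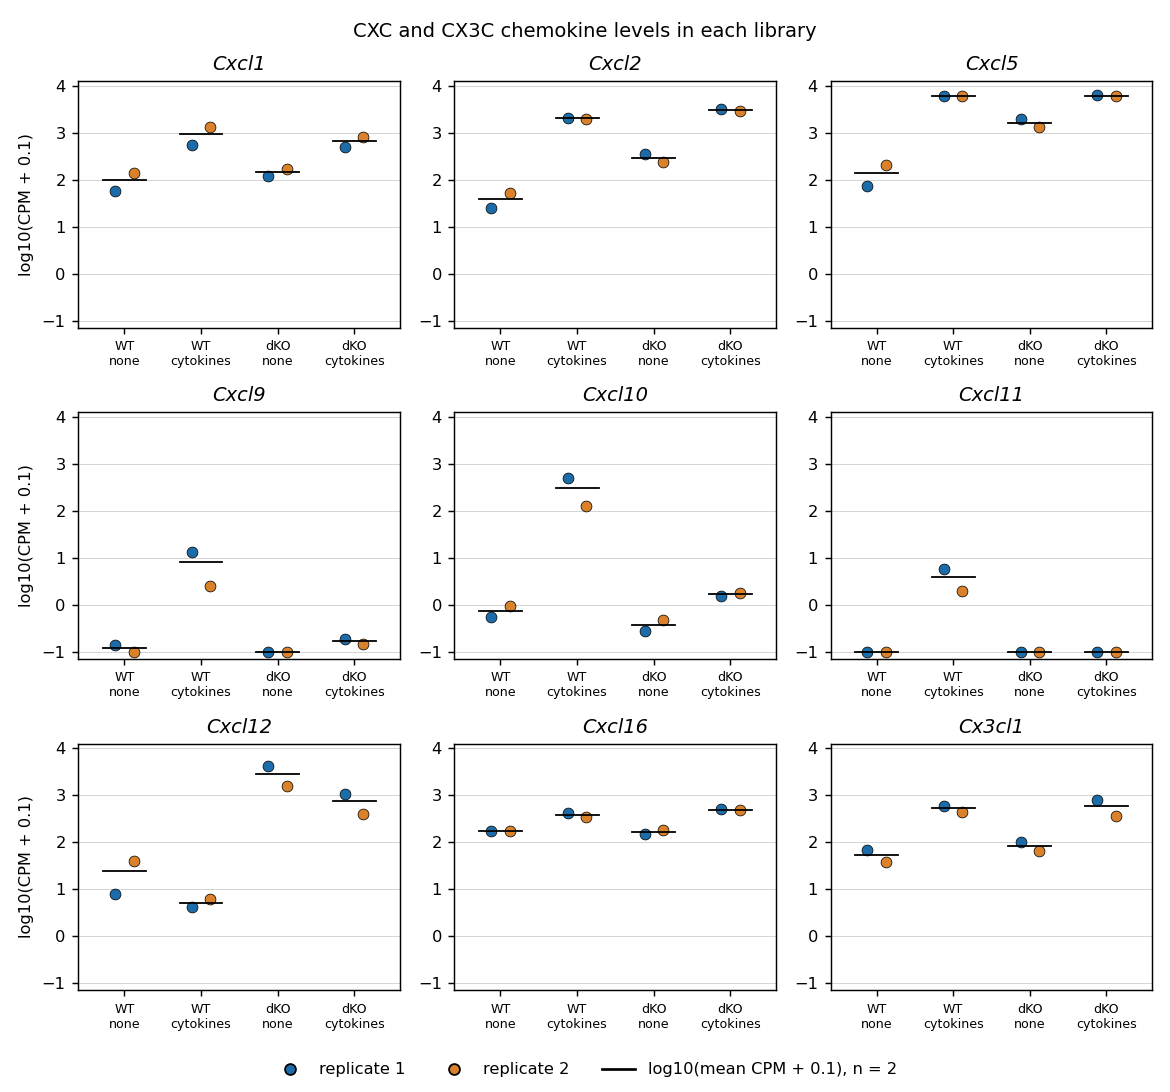
Each panel plots 1 chemokine gene, with log10(CPM + 0.1) on the vertical axis and the 4 groups along the horizontal axis. Points are the 2 libraries of a group and lines are group means. Cxcl10 reached 127 and 500 CPM only in WT with cytokines, and Cxcl12 was high in all 4 dKO libraries.

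The first comparison asked which of the genes differed between dKO and WT cells without cytokines. Cxcl2, Cxcl5 and Cxcl12 rose, 3 of 9, none fell, and 6 did not pass (edgeR, quasi-likelihood, with p adjusted by Benjamini-Hochberg over the 15698 genes tested, threshold 0.05). Over all genes tested, 13.4% were higher and 9.66% lower. The median log2 fold change was 0.60 over the 9 genes and 0.02 over all genes tested. Cxcl9 and Cxcl11, with at most 1 count in any of these libraries, are among the 6 and enter the median of the 9.

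Cxcl5, a neutrophil chemoattractant, was at 72.9 and 203 CPM in WT and at 1932 and 1350 in dKO. Both dKO libraries were far above both WT libraries, and the mean was 11.9-fold higher (3.57 on the log2 scale with SE 0.496, edgeR adjusted p = 0.00726). Cxcl2, its neighbour on chromosome 5 and also a CXCR2 ligand, stood at 24.9 and 53.1 CPM in WT and 345 and 239 in dKO. It was 7.49-fold higher, again with no overlap (2.90, SE 0.38, adjusted p = 0.00608 with edgeR). Cxcl1, the third ligand of that cluster, was at 56.3 and 136 CPM in WT and 121 and 170 in dKO. The libraries of the 2 genotypes overlapped and the difference did not pass (0.60, SE 0.586, adjusted p = 0.485 with edgeR).

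Cxcl12, which retains CXCR4-bearing cells in tissues, was at 7.57 and 40.2 CPM in WT and at 4171 and 1571 in dKO. Both dKO libraries exceeded both WT libraries, and the mean was 120-fold higher (6.91 on the log2 scale with SE 1.14, edgeR adjusted p = 0.0132). This call was lost without the first WT library (6.15, adjusted p = 0.0575), with no filter on low counts (0.0509) and with only the 4 libraries compared in the fit (0.0501). Cxcl12 is known as a product of stromal cells, and 14 stellate, pericyte and fibroblast markers summed to 9280 and 9400 CPM in WT and to 18000 and 13600 in dKO. Of 13 tested, 8 rose in dKO, beside 13.4% of all genes tested. Among them were Pdgfra at 2.07 and 3.67 CPM in WT and 933 and 615 in dKO, and Col1a2 at 4.73 and 4.45 against 218 and 163. The other 5 did not pass, and the pericyte marker Rgs5 went the other way, with means of 8.3 CPM in WT and 1.93 in dKO (-2.11, adjusted p = 0.139 with edgeR). One transcript, Dcn, made up most of the sum in each library, at 9024 and 9174 CPM in WT and 13430 and 11700 in dKO, while Lrat, a defining stellate cell gene, had at most 1 count in each of the 8 libraries. The part of such cells in the Cxcl12 difference was not tested, and in sorted bulk RNA a change in the makeup of the cells and a change in RNA per cell cannot be told apart.

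**Figure D2:**
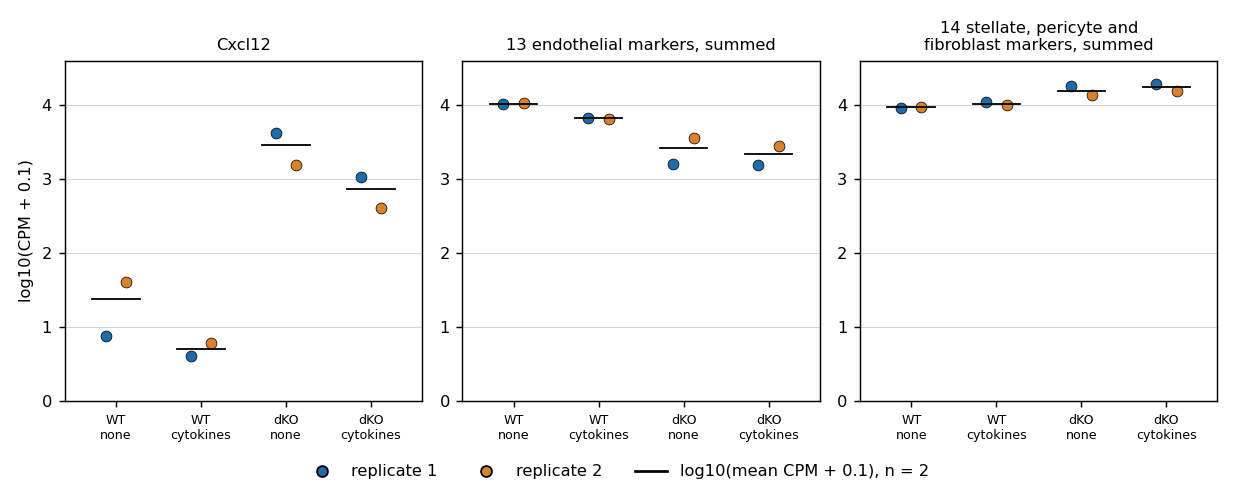
The panels plot Cxcl12, the summed 13 endothelial markers and the summed 14 stellate, pericyte and fibroblast markers as log10(CPM + 0.1) by group. Points are libraries and lines are group means. In dKO, Cxcl12 and the stromal sum were higher and the endothelial sum lower, and dKO replicate 1 was the more extreme of the 2 in all panels.

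The 2 dKO libraries differed in the same order for these measures. Replicate 1, with 4171 CPM of Cxcl12, had an endothelial sum of 1590 CPM and 40.1 CPM of Erg, and replicate 2, with 1571 CPM of Cxcl12, had 3650 and 91.3. Without both dKO libraries numbered 2, Cxcl12 (7.43, adjusted p = 0.0236), Cxcl2 (3.13, adjusted p = 0.0159) and Cxcl5 (3.8, adjusted p = 0.0261) still passed with edgeR. Cx3cl1, the only CX3C chemokine, was at 66.3 and 37.5 CPM in WT and 100 and 65.6 in dKO, overlapping and not passing (0.68, SE 0.469, adjusted p = 0.328 with edgeR). With the replicate number as a block over all libraries it passed (0.70, adjusted p = 0.0313 with edgeR). Cxcl16 was at 172 and 171 CPM in WT and 152 and 181 in dKO, so the WT values lay between the dKO values (-0.04, adjusted p = 0.823 with edgeR). Cxcl10, at 0.443 and 0.843 CPM in WT and 0.179 and 0.374 in dKO, rested on 4 to 25 counts per library and did not pass (-1.20, adjusted p = 0.471 with edgeR).

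The second comparison asked what IL1B and TNFA did in WT cells. Of the 9 genes 8 rose, none fell, and Cxcl12 did not pass. Cxcl9 and Cxcl11 were tested only through their counts in WT with cytokines, so the filter largely set their direction here in advance. Over all genes tested 9.72% were higher and 7.69% lower, and the median log2 fold change was 5.44 over the 9 genes and -0.01 over all genes. DESeq2 called 7 of 9 higher, without Cxcl11, beside 11.6% of all genes.

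The neutrophil ligands rose by different factors. Cxcl2 reached 2104 and 1912 CPM, which was 51.5-fold (5.69 on the log2 scale with SE 0.432, edgeR adjusted p = 0.0019), and Cxcl5 reached 5936 and 6056 CPM, which was 43.5-fold (5.44, SE 0.542, adjusted p = 0.00363). Cxcl1 reached 540 and 1319 CPM, or 9.67-fold (3.27, SE 0.636, adjusted p = 0.0228). Its replicate 2 was above replicate 1 in both WT groups, so that the ratio within a number was 9.6 and 9.7, but the edgeR call was lost when WT replicate 1 or 2 without cytokines or WT replicate 2 with cytokines was left out (adjusted p of 0.112, 0.0645 and 0.0805), and with no filter on low counts (0.0922).

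The CXCR3 ligands were nearly silent without cytokines. Cxcl10 rose from 0.443 and 0.843 to 500 and 127 CPM, or from 12 and 25 counts to 11345 and 3243, which was 488-fold in the mean (8.91, SE 0.891, adjusted p = 0.00409 with edgeR). Cxcl9 rose from 1 and 0 counts to 307 and 62, a ratio of 435 with a 95% counting interval of 77.6 to 17200 (adjusted p = 0.0181 with edgeR), and Cxcl11 from 0 and 0 to 127 and 48 counts, at least 68.8-fold if the empty group is set to 3 counts (adjusted p = 0.0326). All 3 were higher in WT replicate 1 than in replicate 2. The Cxcl9 call was lost when either WT library without cytokines was left out (adjusted p of 0.11 and 0.119 with edgeR). The Cxcl11 call was lost when any 1 of the 4 WT libraries was left out (0.0551 to 0.118) and with DESeq2 (0.164). Of the 50-base stretches in Cxcl11 transcripts, 40.4% also occur in other genes, chiefly in Gm2673 on the opposite strand, which had 0 counts in each library. For Cxcl10 the shared part was 3.59%, with Art3, which reached at most 2.7 CPM.

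Both membrane-bound chemokines rose. Cx3cl1, at 66.3 and 37.5 CPM without cytokines, reached 599 and 443 CPM, or 10-fold (3.33, SE 0.509, adjusted p = 0.0116 with edgeR), and the call was lost without WT replicate 1 or 2 without cytokines or WT replicate 1 with them (0.0593 to 0.0784). Cxcl16 moved from 172 and 171 to 407 and 349 CPM, or 2.21-fold, with the smallest standard error of the 9 (1.14, SE 0.126, adjusted p = 0.00402). Zmynd15 overlaps 18.3% of Cxcl16's exon bases on the opposite strand and was at 105 and 98.9 CPM without and 134 and 132 with cytokines in WT, so part of the counts could be shared. Cxcl12 stood at 3.97 and 6.05 CPM with cytokines, below both libraries without, but did not pass (-2.25, SE 0.961, adjusted p = 0.166 with edgeR). With the replicate number as a block within genotype it passed as lower (-1.98, adjusted p = 0.0435).

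The third comparison asked the same of dKO cells, where 3 of 9 genes rose (Cxcl2, Cxcl16 and Cx3cl1) and none fell. Over all genes tested 3.50% were higher and 2.06% lower, and the median log2 fold change was 2.17 over the 9 genes and -0.01 over all genes. Cxcl9 and Cxcl11 are among the 9 although each held at most 3 counts in either dKO group. The number of genes called depended on the fit. With the replicate number as a block within genotype 5 rose and 1 fell, beside 12.7% higher and 11.3% lower over all genes. DESeq2 called 6 higher, beside 6.87% of all genes, and with only the 4 dKO libraries fitted 0 passed, beside 0.00675%. Leaving out dKO replicate 1 without or with cytokines left 1 call, beside 0.495% and 0.846% of all genes higher.

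Cxcl2 went from 345 and 239 to 3191 and 2928 CPM, or 10.5-fold (3.39, SE 0.387, adjusted p = 0.012 with edgeR), and the call was lost without dKO replicate 1 without cytokines (0.0539) or with them (0.0521), and without both dKO libraries numbered 2 (0.0669). Cxcl5 went from 1932 and 1350 to 6269 and 5954 CPM, 3.73-fold in the mean and without overlap. It did not pass (1.90, SE 0.463, adjusted p = 0.0722 with edgeR), and with the block within genotype it did (1.92, adjusted p = 0.0385). Cxcl1 went from 121 and 170 to 488 and 825 CPM, or 4.51-fold, without overlap (2.17, SE 0.609, adjusted p = 0.103 with edgeR), and with the block within genotype the adjusted p was 1.57e-05.

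Cxcl10 reached 1.45 and 1.68 CPM in dKO with cytokines, from 0.179 and 0.374, a 5.66-fold difference of means that did not pass (2.47, SE 1.04, adjusted p = 0.226 with edgeR, 0.0493 with DESeq2). These values rest on 32 and 38 counts. Cxcl9 had 2 and 1 counts and Cxcl11 0 and 0 counts with cytokines, so no fold is given. A count of 0 in both libraries allows up to 0.0672 CPM of Cxcl11.

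Cxcl16 went from 152 and 181 to 499 and 483 CPM, or 2.95-fold (1.56, SE 0.127, adjusted p = 0.00516 with edgeR), while Zmynd15 was at 48.5 and 75.9 and at 80.3 and 103 CPM. Cx3cl1 went from 100 and 65.6 to 797 and 356 CPM, or 6.96-fold (2.80, SE 0.497, adjusted p = 0.0351 with edgeR). The Cx3cl1 call was lost when any 1 of 7 libraries was left out, all but dKO replicate 2 with cytokines. Cxcl12 went from 4171 and 1571 to 1064 and 403 CPM, 3.91-fold lower, and did not pass (-1.97, SE 0.914, adjusted p = 0.267 with edgeR). The ratio within a number was 3.92 and 3.89, and with the block within genotype Cxcl12 passed as lower (-1.97, adjusted p = 0.0372).

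The fourth comparison set dKO against WT with cytokines in both. Cxcl12 was higher and Cxcl9, Cxcl10 and Cxcl11 were lower, 1 and 3 of 9, beside 18.6% higher and 15.4% lower over all genes tested. As above, Cxcl9 and Cxcl11 passed the filter only through WT with cytokines, so their direction and p-values here are no independent support. The median log2 fold change was 0.03 over the 9 genes and 0.01 over all genes tested.

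All 3 CXCR3 ligands were lower. Cxcl10 stood at 500 and 127 CPM in WT and 1.45 and 1.68 in dKO, and the mean was 200-fold lower (-7.64 on the log2 scale with SE 0.832, edgeR adjusted p = 0.00336). Cxcl9 was 114-fold lower, with a counting interval of 38.7 to 556 (adjusted p = 0.0141), and Cxcl11 at least 54.1-fold lower (adjusted p = 0.0221). The lower of the 2 WT libraries was still far above both dKO libraries. The Cxcl9 call was lost without either dKO library with cytokines (0.0865 and 0.0661), and the Cxcl11 call without WT or dKO replicate 1 with cytokines (0.0775 and 0.0648) and with DESeq2 (0.134).

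Cxcl12 stood at 3.97 and 6.05 CPM in WT and at 1064 and 403 in dKO, with a mean 147-fold higher (7.19, SE 1.17, adjusted p = 0.00862 with edgeR). The call was lost without either WT library with cytokines (0.0744 and 0.0592). In these libraries the stellate, pericyte and fibroblast sum was 10900 and 10000 CPM in WT and 19400 and 15400 in dKO. Higher in dKO were 7 of 13 tested markers, beside 18.6% of all genes tested.

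None of the neutrophil and membrane-bound ligands passed. Cxcl5 was at 5936 and 6056 CPM in WT and 6269 and 5954 in dKO, which overlapped (0.03, adjusted p = 0.967 with edgeR). Cxcl2 was at 2104 and 1912 against 3191 and 2928 CPM, with both dKO libraries higher (0.61, adjusted p = 0.22), and passed when only those 4 libraries were fitted (0.62, adjusted p = 0.043). Cxcl1 overlapped (-0.50, adjusted p = 0.53), as did Cx3cl1 (0.15, adjusted p = 0.827). Cxcl16 was at 407 and 349 CPM in WT and 499 and 483 in dKO, without overlap (0.38, SE 0.124, adjusted p = 0.0563 with edgeR, 0.0433 with DESeq2). A p that misses the threshold does not show equal levels.

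The fifth comparison tested whether the cytokine response itself differed between the genotypes, as an interaction. With edgeR 0 of 9 genes passed, as did 0% of all genes tested in either direction. At an unadjusted p under 0.05 there were 3 of the 9, Cxcl2, Cxcl5 and Cxcl10, and the same 3 passed with DESeq2, all with a smaller response in dKO. Over all genes tested, 5.41% were lower at that unadjusted p and 1.47% were lower with DESeq2. With the block within genotype Cxcl1 and Cxcl5 passed as lower, 2 of 9, beside 2.80% of all genes tested. The median difference in log2 response was -2.30 over the 9 genes and 0.000476 over all genes tested. Cxcl9 (-4.63, SE 60.3) and Cxcl11 (-9.52, SE 18800) enter the median of the 9. Outside WT with cytokines they held at most 3 counts per group, so their interaction cannot be estimated and that median is no measure of a shared shift.

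Cxcl10 had the largest difference that rests on more than 3 counts per group, a response in dKO smaller than in WT by 6.44 on the log2 scale (-6.44, SE 1.67, adjusted p = 0.285 with edgeR, 3.97e-05 with DESeq2). Within a number the ratio with to without cytokines was 1130 and 151 in WT and 8.13 and 4.49 in dKO. For Cxcl5 the ratios were 81.5 and 29.8 in WT and 3.25 and 4.41 in dKO (-3.54, SE 0.652, adjusted p = 0.193 with edgeR, 2.56e-07 with DESeq2, and 0.0479 with the block within genotype). For Cxcl2 they were 84.5 and 36 in WT and 9.25 and 12.3 in dKO (-2.30, SE 0.506, adjusted p = 0.225 with edgeR, 0.000197 with DESeq2).

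These differences were of 2 kinds by level. Cxcl2 and Cxcl5 were higher in dKO before cytokines and did not differ past the threshold after them, whereas Cxcl10 ended lower from a start that did not differ past the threshold. Cxcl1 had ratios of 9.6 and 9.7 in WT and 4.03 and 4.86 in dKO and passed only with the block within genotype (-1.12, adjusted p = 0.00527, against -1.10 and 0.709 without it). Cxcl16 (2.37 and 2.04 against 3.29 and 2.67) and Cx3cl1 (9.03 and 11.8 against 7.96 and 5.43) did not pass in any fit run. Cxcl12 was lower with cytokines by 1.91-fold and 6.64-fold in WT and by 3.92-fold and 3.89-fold in dKO, and the interaction was 0.28 (adjusted p = 0.972 with edgeR).

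**Figure D3:**
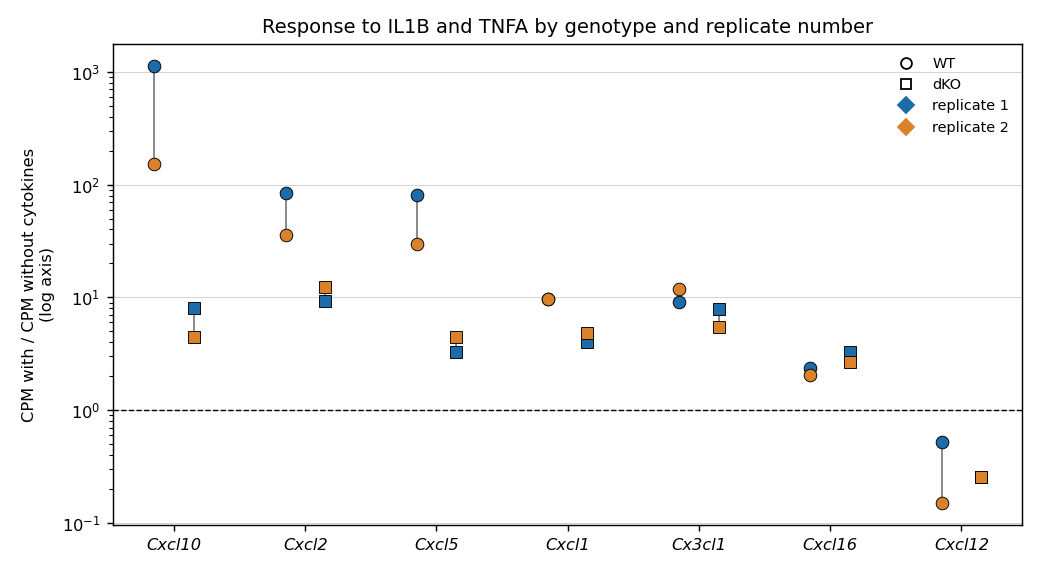
The vertical axis, on a log scale, gives CPM with cytokines divided by CPM without, within a genotype and replicate number, for the 7 chemokine genes with more than 3 counts in each group. Circles are WT and squares dKO, and points that coincide (Cxcl1 in WT, Cxcl12 in dKO) hide one another. Cxcl10, Cxcl2, Cxcl5, Cxcl1 and Cx3cl1 had both WT ratios above both dKO ratios, Cxcl16 had both below, and for Cxcl12 the WT ratios lay on both sides of the dKO ratios.

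Cxcl3 and Pf4, the other CXC ligands at more than a few CPM, were among 4 of 7 tested in a list of the remaining family. Cxcl3, a further CXCR2 ligand, was at 3.62 and 5.23 CPM in WT and 53.3 and 75.2 in dKO without cytokines, and at 433 and 406 and at 550 and 587 with them. It rose in dKO (3.86, adjusted p = 0.000996), in WT with cytokines (6.57, adjusted p = 0.000582) and in dKO with cytokines (3.15, adjusted p = 0.00445), by edgeR. Its pattern thus resembled that of Cxcl2, with which it shares 5.84% of the 50-base stretches of Cxcl2. Pf4, platelet factor 4, was at 2.7 and 2.8 CPM, at 92.5 and 98.1, at 30.8 and 14.8 and at 82.5 and 49.8 CPM in WT without, WT with, dKO without and dKO with cytokines. It rose in dKO (3.05, adjusted p = 0.00738) and in WT with cytokines (5.11, adjusted p = 0.0029). Cxcl15 had 0 counts in all 4 WT libraries, 61 over the dKO libraries without cytokines (adjusted p = 0.013 against WT, edgeR) and 5 over those with them. It passed the filter only through dKO without cytokines, so its direction and p-value are no independent support. Cxcl14 was higher in dKO with cytokines (1.43, adjusted p = 0.0391 with edgeR).

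Of 11 chemokine receptors, not all of them receptors of the 9 genes, 5 were tested. Cxcr1 had 0 counts in each library and Cxcr2, the receptor of the neutrophil ligands, 1 count in all. Cxcr4, the Cxcl12 receptor, was at 13.5 and 20.6 CPM in WT and 0.894 and 38 in dKO without cytokines, and at 4.63 and 9.31 and at 0.681 and 28.5 with them. Its dKO libraries lay on both sides of the WT libraries, and it passed in no comparison. Ackr3, the scavenging receptor of Cxcl12, was at 79.6 and 59 CPM in WT and 188 and 143 in dKO with cytokines and was higher in dKO (1.25, SE 0.326, adjusted p = 0.0303 with edgeR). Ackr4, not a known receptor of the 9 genes, was at 1.99 and 1.45 CPM in WT without cytokines (54 and 43 counts). It was lower in dKO without cytokines (6 and 8 counts, -2.50, adjusted p = 0.0198 with edgeR). In WT with cytokines it was lower too (5 and 3 counts, -3.32, adjusted p = 0.0124). It passed the filter only through WT without cytokines, so the filter largely set both directions in advance.

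Adam17, a protease that sheds Cx3cl1 and Cxcl16 from the cell surface on stimulation, went from 149 and 156 to 257 and 258 CPM in WT and from 118 and 129 to 220 and 222 in dKO with cytokines. Both rises passed (0.76, adjusted p = 0.00454, and 0.84, adjusted p = 0.00901, edgeR). Rhbdf2, a cofactor of Adam17, also rose in both (0.73, adjusted p = 0.0161, and 0.66, adjusted p = 0.0433). Adam10, the protease of constitutive shedding, was at 226 to 310 CPM over the 8 libraries and passed in no comparison. The list of 5 genes thus had 2 that rose with cytokines in each genotype, Rhbdf1 higher in dKO with and without cytokines, and none that fell. Over all genes tested, 9.72% rose with cytokines in WT and 3.50% in dKO.

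Of 13 genes for NF-kB, STAT and interferon regulatory factors and their inhibitors, 12 rose with cytokines in WT and 7 in dKO, and 9 were lower in dKO than in WT with cytokines. Over all genes tested, the matching shares were 9.72%, 3.50% and 15.4%. Without cytokines 2 were higher and 1 lower in dKO, beside 13.4% and 9.66% of all genes tested. Irf7, which drives interferon-responsive genes, was at 7.46 and 10.3 CPM without and 207 and 71.1 with cytokines in WT, and at 6.88 and 6.45 and at 7.50 and 6.10 in dKO. It rose in WT (3.97, adjusted p = 0.00834), did not pass in dKO (0.03, adjusted p = 0.983) and was lower in dKO with cytokines (-4.36, adjusted p = 0.00431, edgeR).

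As for Cxcl9, Cxcl10 and Cxcl11, the first WT library with cytokines held more Irf7 than the second. Stat2 and Irf9, which act in type I interferon signalling, were lower in dKO with cytokines too (-2.25, adjusted p = 0.00515, and -2.32, adjusted p = 0.00269, edgeR). Irf1 rose in both genotypes (2.25, adjusted p = 0.00241, and 1.57, adjusted p = 0.0136) and was lower in dKO with cytokines (-0.75, adjusted p = 0.0262). No interaction passed with edgeR for any of the 13, whereas 9 were at an unadjusted p under 0.05 and DESeq2 called 6, among them Irf7 (-3.94, adjusted p = 3.62e-07), Stat2 (0.00157) and Irf9 (9.18e-05). Over all genes tested, 5.41% were lower at that unadjusted p and 1.47% were lower with DESeq2.

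**Figure D4:**
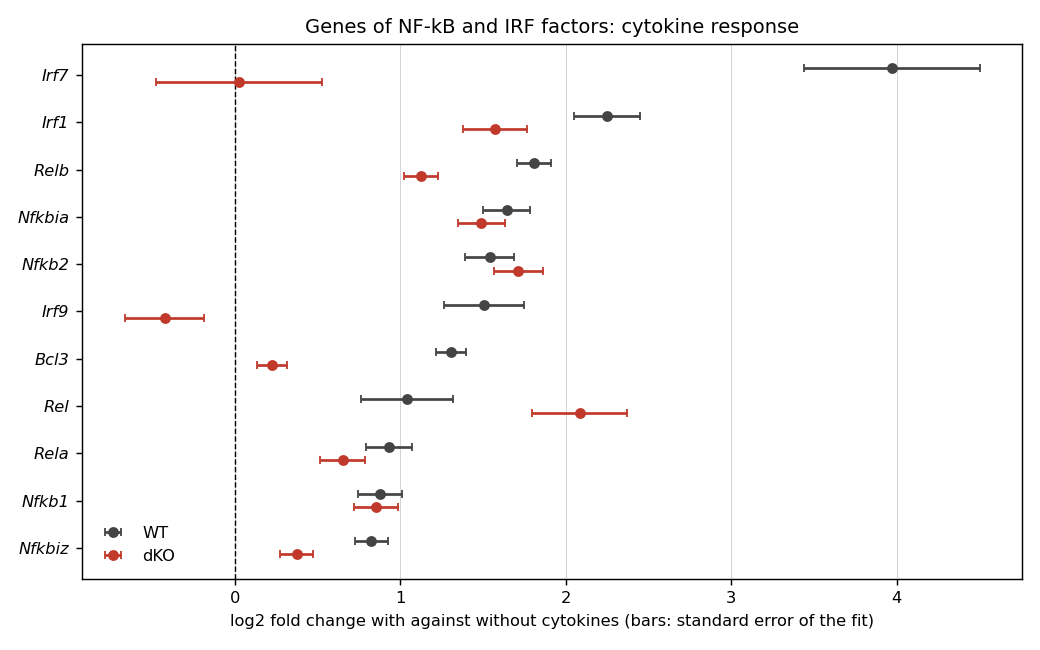
Points give the log2 fold change with against without cytokines for 11 genes of NF-kB and interferon regulatory factors, in WT (grey) and dKO (red), and bars the standard error of the fit. Irf7 was at 3.97 in WT and 0.03 in dKO, and Irf1 at 2.25 and 1.57.

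Of 7 genes that act on the stability of chemokine transcripts, 5 rose with cytokines in WT and 3 in dKO, and 3 were higher in dKO than in WT with and without cytokines, beside 1 that was lower without them. Over all genes tested, 9.72% rose with cytokines in WT and 3.50% in dKO. Higher in dKO were 18.6% with and 13.4% without cytokines, and 9.66% were lower without them. Zc3h12a, an endoribonuclease that degrades inflammatory transcripts, was at 46.1 and 47.6 CPM in WT and 114 and 89.2 in dKO without cytokines, and at 100 and 96.1 and at 276 and 192 with them. It rose in dKO (1.12, adjusted p = 0.012) and with cytokines in WT (1.07, adjusted p = 0.0156) and dKO (1.20, adjusted p = 0.0238), by edgeR.

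Of 17 CC chemokines, the other large family, 11 were tested. Without cytokines 3 were higher in dKO and none lower, beside 3 and 0 of the 9 genes and 13.4% and 9.66% of all genes tested. With cytokines 5 rose and 1 fell in WT, 3 rose in dKO, and 3 were higher and 1 lower in dKO than in WT. Over all genes tested, the matching shares were 9.72% and 7.69%, 3.50%, and 18.6% and 15.4%. Ccl5, at 137 and 190 CPM in WT and 48.3 and 32.1 in dKO with cytokines, was the 1 that was lower (-2.02, adjusted p = 0.015 with edgeR). Whether the CC and CXC families differ was not tested.

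The genes whose log2 CPM ran most like each chemokine over the 8 libraries were ranked by Pearson r among tested genes with a mean of at least 1 CPM. The libraries fall into 4 groups that share genotype and treatment, so high values arise easily and are given only as a description. For Cxcl2 they were Gm16685 (0.990), P4hb (0.990) and Cxcl3 (0.990), and for Cxcl11 Gm4951 (0.996), Cmpk2 (0.994) and Irf7 (0.992). Cxcl9 was most like Dtx3l (0.996), Eif2ak2 (0.993) and Gbp7 (0.993), and Cxcl10 like Clic4 (0.996), Eif4e3 (0.995) and Dynll1 (0.990). Cxcl12 was most like H1fx (0.996), Rab7b (0.996) and Tst (0.996), Cxcl16 like Zfp330 (0.996), Ptgs2 (0.992) and Fstl1 (0.988), and Cx3cl1 like Samd4b (0.991) and Serpinb1a (0.989). The nearest to Cxcl1 were Polr3d (0.987), Rgs16 (0.982) and Tmed2 (0.975), and to Cxcl5 Rtl8b (0.988), Ppp2r3c (0.987) and Gm15283 (0.984). Among the 9 genes, r was 0.974 to 0.988 between the 3 CXCR3 ligands and 0.979 between Cxcl2 and Cxcl5, and Cxcl12 was at -0.677 to -0.695 with the CXCR3 ligands.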

How the data were processed

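RNA of 8 libraries was measured, 2 in each of 4 groups taken from the genotype and treatment in the labels. The authors deposited raw counts of reads for each Ensembl gene, whole numbers without normalization. The submitters' processing notes list GRCm38, STAR 2.7.6a and FastQC 0.11.5, while the counting program, annotation and strand setting were not given in the sources used here. An unstranded or a stranded kit was used, per the labels' protocols, so overlapping genes on opposite strands may share counts. Totals ran from 23009062 to 26944030 counts.

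In R 4.3.3, edgeR 4.0.16 was run with TMM scaling, filterByExpr by group, which kept 15698 of 52636 genes, and a robust quasi-likelihood model of all 8 libraries with a coefficient per group (4 residual degrees of freedom, common biological coefficient of variation 24.3%). Each of 5 contrasts was tested two-sided at 0.05, with p adjusted by Benjamini-Hochberg over every gene tested. The script was tested on simulated counts. A fold against a group at 0 counts uses a floor of 3 counts over that group, and against 1 to 3 counts has a 95% counting interval. Both cover counting error only, since PCR copies of a molecule were not marked. Exon lengths and positions come from GENCODE M21 and promoters from RefSeq. Alternatives were DESeq2 1.42.0, RLE size factors, no filter, only the libraries compared, replicate blocks and leaving out each library, and, added after seeing the data, both dKO libraries numbered 2.

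The 9 genes and the gene lists were chosen with earlier results of these data known. Named genes were the 9, Erg and Fli1, at most 4 genes per other list with the largest changes among those at 1 CPM or more, and the 3 most alike genes of each, of which some are not reported here. Cxcr1, Cxcr2, Cxcr4, Adam10, Dcn, Lrat, Rgs5, Epcam, Krt7, Msln, Upk3b, Ptprc, Xist and Ddx3y fall outside that rule and were named after their values were seen.

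Deviations from group means of libraries with the same number correlated across genes at 0.434 in WT and 0.689 in dKO, and at 0.0168 to 0.134 across genotypes. Deposited column names share a stem by genotype and number, and Xist and Ddx3y matched within them. Pairing within a genotype was accepted on this basis, though no label states it, and the block within genotype is given beside a result where it changed the call. The main edgeR model leaves this pairing out. With the block, 3769 rather than 872 genes passed with cytokines in dKO, and 947 rather than 0 for the interaction.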

Additional observations from a re-analysis of the deposited data

Results flagged for a closer look

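For 4 of the 9 chemokine genes the cytokine response differed between dKO and WT in at least 1 test of the interaction other than the edgeR test used in the report, which passed for none of them. With DESeq2, the response in dKO minus that in WT was -6.44 on the log2 scale for Cxcl10, -2.30 for Cxcl2 and -3.54 for Cxcl5. With edgeR and the replicate number as a block within genotype it was -1.12 for Cxcl1 and -3.70 for Cxcl5. Over all genes tested, 1.47% were lower with DESeq2 and 2.80% with that block, and no share was computed for passing in either. Cxcl5 passed in both. The smaller response in dKO was seen in both replicate numbers for all 4 genes, but these are the libraries that were tested, so this is no separate support.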

How the results depend on the processing

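Over 562 alternative values of single genes, 491 kept direction and side of the threshold, 41 lost the call, 22 gained it and 8 turned direction, all 8 among differences that had not passed. These 8 each left out 1 library. In dKO against WT with cytokines, Cx3cl1 ranged from -0.558 (dKO replicate 1 out) to 0.62, and was -0.057 without WT replicate 2. Cxcl1 ranged from -0.999 to 0.279 (WT replicate 2 out) and Cxcl5 from -0.0181 (dKO replicate 1 out) to 0.0714. Without cytokines Cxcl16 ranged from -0.174 to 0.0672 (dKO replicate 1 out). The Cxcl12 interaction ranged from -1.37 (WT replicate 2 without cytokines out) to 1.17, and was -0.254 without dKO replicate 2 without cytokines and -0.586 without dKO replicate 1 with them. The number of the 9 genes called with cytokines in dKO, 3, was 6 with DESeq2, 6 with the replicate block within genotype, 0 with only the libraries compared and 1 without both dKO libraries numbered 2. The interaction count, 0, was 3 with DESeq2 and 2 with that block. Leaving out each library in turn gave 4 to 8 calls in WT with cytokines, 1 to 3 in dKO with cytokines, 2 to 5 for genotype with cytokines, 2 to 3 without them and 0 to 1 for the interaction. The 1 was Cxcl10 without WT replicate 2 with cytokines (-7.11, adjusted p = 0.0392). Leaving out a library also lowers the degrees of freedom, and the cause of these changes in calls was not tested. Calls over all genes changed with the library left out as well, so a lower count is not particular to the 9 genes. The block over all libraries also passed Cxcl1 with cytokines in dKO (2.13, adjusted p = 0.00742), and no replicate block changed another call of the 9 genes beyond those given in the report. The block within genotype gives no genotype contrast, and the fit of only the compared libraries gives no interaction. Over all genes, calls ranged over the settings from 527 to 5602 without cytokines by genotype (3617 as reported), 413 to 5943 for cytokines in WT (2733), 1 to 3769 in dKO (872), 1621 to 6671 for genotype with cytokines (5343) and 0 to 947 for the interaction (0). The main model had 2 libraries a group and 4 residual degrees of freedom. In it, large differences with cytokines in dKO for Cxcl5, Cxcl1 and Cxcl12 missed the threshold, and they passed with the block within genotype. Why they missed it was not tested. Cxcl9 and Cxcl11 rest on few counts.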
